A study of Mus musculus with 16 samples.

Results

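The promoters of developmental transcription factors outside the Hox clusters, those of the Pax, Lhx, Sox, Tbx, Nkx, Dlx, Irx and Gata families and of Six-type homeobox genes, were followed in maps of promoter contacts of mouse liver. Members were the captured HindIII fragments (baits) that hold the annotated start of an autosomal protein-coding gene of these 9 families. The name rule found 83 such genes, of which 69 had their start on a bait, each on a bait of its own, out of 18165 baits in all. These 69 baits took part in 1151 of 247177 distinct pairs, or 0.466%, and none of their pairs joined different chromosomes. The start of 14 genes lay on no listed bait (Irx1, Irx2, Irx6, Lhx3, Nkx1-1, Nkx2-5, Nkx2-9, Nkx6-3, Pax7, Sox10, Sox11, Sox18, Tbx18 and Tbx4), so no value is given for them. Of the 69 baits, 14 also held the start of a noncoding gene and 3 that of another protein-coding gene, and contacts of those baits cannot be assigned to either gene.

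Promoter Capture Hi-C ligates pieces of chromatin that lie close together in the nucleus, enriches the products that contain a promoter, and sequences both ends. Livers came from male wild-type C57BL/6 mice labelled as 8 weeks old, which the methods give as the age before a period on 12 h of light and 12 h of dark with free access to food. Tissue was collected at zeitgeber time (ZT, hours after lights on) 0, 6, 12 and 18, as 3 pools of 2 livers at each timepoint, and the 16 sequenced samples include pool A on 2 lanes. The pools of a timepoint were merged before contacts were called, so there is 1 list per timepoint, no value has replicate error, and no test between timepoints was possible. Each listed pair has a CHiCAGO score, which measures how far its read count exceeds what distance and technical noise predict, and the lists hold scores of at least 5. By the sample labels the ZT0 list held 146262 pairs, the ZT6 list 154775, the ZT12 list 151529 and the ZT18 list 151347, and the study's own summary of totals places the last 3 under other timepoints. Whole liver was used, and a contact made in few cells cannot be told apart from a weak contact made in many. No RNA was analysed here, so the tissue was not checked against marker expression.

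These families encode DNA-binding proteins that assign cell identity in the embryo: paired-box, LIM-homeobox, HMG-box, T-box, homeobox and zinc-finger factors. Most of the genes are known as silent in the adult hepatocyte, where such promoters often carry Polycomb chromatin, while a few act in liver endothelium, stellate cells, bile ducts or hepatocyte progenitors. Many are known to lie in gene-poor regions and to be controlled in the embryo from remote enhancers, some of them inside introns of an unrelated neighbour.

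Members were joined to each other by 2 pairs, and the stronger was Irx3 with Irx5. The promoter window of Irx3 is shown for that reason, from 250 bases before to 50 bases after the annotated start, read from mm9, 5′ to 3′ along the gene, with CG dinucleotides in capitals.
Irx3, chr8:94325504-94325803, minus strand: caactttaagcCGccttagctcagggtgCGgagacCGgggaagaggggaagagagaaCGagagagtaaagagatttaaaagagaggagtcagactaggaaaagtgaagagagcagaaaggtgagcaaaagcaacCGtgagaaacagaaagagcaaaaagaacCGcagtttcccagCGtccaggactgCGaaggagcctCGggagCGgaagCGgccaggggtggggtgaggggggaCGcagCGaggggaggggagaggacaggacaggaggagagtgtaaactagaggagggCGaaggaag
The Irx3 window held 14 CG dinucleotides. Over the 69 members the median was 18 (quartiles 12 and 26), beside 15 (5 and 25) over 16455 protein-coding genes whose start lies on a bait. The E-box CACGTG, a palindrome bound by the CLOCK and BMAL1 proteins, occurred in 6 of 69 member windows (8.70%, 95% Wilson interval 4.05 to 17.7) and in 8.52% of all these windows. The 6 genes were Dlx2, Gata5, Nkx1-2, Nkx2-2, Nkx2-6 and Sox8, and a letter match alone does not show binding. None of the member genes was among the 1256 genes of the study's list of rhythmic transcripts, which the study chose from RNA of mouse liver over the day. The share of all captured genes on that list was not counted, so this absence is not a result about the members.

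Fragments contacted by members were mostly a few kb long. The following are the strongest contacted fragments of at most 300 bases for 6 members, shown whole because their short length places the contact closely. They are given on the plus strand of mm9, with CG dinucleotides in capitals.
Sox2, chr3:34999035-34999281, plus strand: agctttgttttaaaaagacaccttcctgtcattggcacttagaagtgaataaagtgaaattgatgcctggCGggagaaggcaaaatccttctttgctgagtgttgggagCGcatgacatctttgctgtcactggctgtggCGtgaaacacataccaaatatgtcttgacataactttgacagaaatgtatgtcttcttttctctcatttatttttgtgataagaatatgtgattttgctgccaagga
Sox8, chr17:25835099-25835315, plus strand: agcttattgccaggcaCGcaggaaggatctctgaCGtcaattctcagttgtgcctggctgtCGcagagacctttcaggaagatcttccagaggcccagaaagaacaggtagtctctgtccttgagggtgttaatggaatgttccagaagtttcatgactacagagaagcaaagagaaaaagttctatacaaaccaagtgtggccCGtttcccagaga
Sox6, chr7:122367830-122368123, plus strand: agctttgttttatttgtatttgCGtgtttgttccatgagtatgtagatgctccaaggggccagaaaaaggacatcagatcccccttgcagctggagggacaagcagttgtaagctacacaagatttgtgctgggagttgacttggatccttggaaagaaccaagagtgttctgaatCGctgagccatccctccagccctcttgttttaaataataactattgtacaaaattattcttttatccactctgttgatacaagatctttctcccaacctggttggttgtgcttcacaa
Nkx3-2, chr5:41512006-41512236, plus strand: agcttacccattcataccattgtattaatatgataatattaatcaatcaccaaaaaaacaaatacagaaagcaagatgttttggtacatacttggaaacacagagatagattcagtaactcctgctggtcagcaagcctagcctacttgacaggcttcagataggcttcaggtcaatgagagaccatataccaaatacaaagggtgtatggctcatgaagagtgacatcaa
Lhx9, chr1:141048134-141048327, plus strand: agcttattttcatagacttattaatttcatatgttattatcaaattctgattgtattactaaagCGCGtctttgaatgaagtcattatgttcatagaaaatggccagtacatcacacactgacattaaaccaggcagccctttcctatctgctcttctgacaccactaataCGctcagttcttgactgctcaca
Irx3, chr8:94057686-94057836, plus strand: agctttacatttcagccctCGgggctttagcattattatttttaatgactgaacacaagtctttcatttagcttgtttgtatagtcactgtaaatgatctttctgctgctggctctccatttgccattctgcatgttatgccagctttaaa
The Sox2 fragment, 451 kb downstream of a gene known for pluripotency and neural progenitors, scored 16.24 (ZT0), 28.44 (ZT6), 16.4 (ZT12) and 16.53 (ZT18). The Sox8 fragment, 129 kb upstream of a gene of glia and testis, scored 24.56, 20.37, 14.76 and 18.58 in the same order. Scores of the Sox6 fragment, 815 kb downstream, were 8.85, 13.24, 16.23 and 14.3. All 3 were listed at every timepoint and lay between genes. The Nkx3-2 fragment lay 641 kb downstream and scored 14.77, 13.15, 13.85 and 13.35. The Lhx9 fragment scored 15.01 at ZT0 and was absent from the other lists, and the Irx3 fragment scored 10.82 at ZT0 and 7.51 at ZT12 and was absent at ZT6 and ZT18. These last 2 lie in introns of other genes, Dennd1b and Fto.

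The number of contacts per member varied widely around a middle close to that of other promoters. The median was 8 contacts (95% interval 5 to 10) with a range from 1 to 141, beside a median of 9 over the 18096 other baits. It was 14.5 over 36 Hox baits, 23 over 17 baits of hepatocyte factors and 7 over 88 baits of other developmental factors. At least 10 contacts were found for 28 members (40.6%), beside 48.6% of the other baits, and 8 members (11.6%) had a single contact, beside 8.86%. By family the median ran from 4 for Irx (3 baits) and Gata (5 baits), over 5.5 for Tbx (10), 7 for Sox (14) and Nkx (10), 8 for Lhx (7), 8.5 for Pax (8) and 9 for Dlx (6), to 19.5 for the Six-type genes (6 baits).

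Sox6, a factor of cartilage and red cell development, had by far the most contacts of the members, 94, 83, 98 and 83 in the ZT0, ZT6, ZT12 and ZT18 lists, or 141 in all. Of these, 140 lay downstream of its start, 66 inside the gene itself and 73 between genes. Six5, a homeobox gene in a gene-dense region, followed with 37, 32, 63 and 58 contacts and 89 in all. Dlx5, a homeobox gene of jaw, limb and forebrain, had 41, 46, 27 and 36. Tbx20, a heart factor, had 42, 51, 49 and 45, and Lhx9, required for the gonad, had 49, 34, 31 and 30. The remaining members among the 12 with most contacts were Nkx3-2 with 45, Irx3 with 42, Six3 with 40, Lhx6 with 38, Tbx2 with 37, Pax9 with 35 and Pax6 with 28, and Tbx3 tied with Pax6. Gata2 led its family with 15. Most of these genes are known from skeleton, forebrain, eye, heart, limb or tooth. Sox6, Six5, Tbx3 and Gata2 are also on the list of members known from adult liver cells, described below.

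At the other end, 8 members had a single contact: Irx4, Nkx2-2, Pax5, Six6, Sox21, Sox7, Tbx21 and Tbx5. That of Tbx21, a T cell factor, joined it to the bait of its neighbour Tbkbp1 across 38.4 kb and was listed throughout, at 5.12, 5.56, 6.26 and 6.91. Among members with a member neighbour, Dlx3 had 22 contacts, Dlx4 and Dlx6 had 9 each, Dlx2 had 6, Dlx1 and Lhx5 had 5 each and Nkx2-4 had 3. The numbers of neighbours were therefore often unequal, as in Dlx5 and Dlx6 (68 and 9) or Irx3 and Irx5 (42 and 4).

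**Figure D1:**
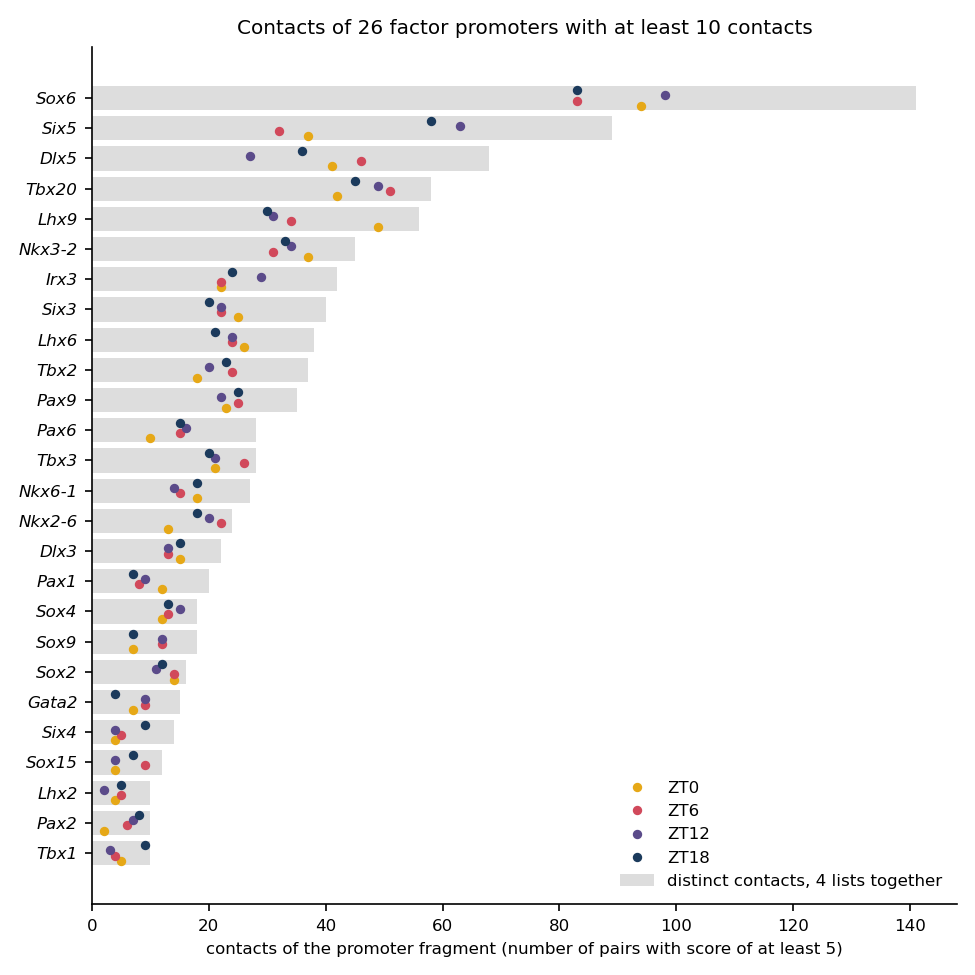
Contacts of 26 of the 28 members with at least 10 contacts; the x axis gives the number of pairs, grey bars the distinct contacts over the 4 lists, and coloured points the number in each list. Sox6 stands apart with 141, and only Six5 and Dlx5 of the rest exceed 60.

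Contacts of the members reached far. Their median distance, between fragment midpoints, was 359.7 kb (95% interval 329 to 379.8), beside 161 kb for pairs of all other baits, 297 kb for Hox, 128 kb for hepatocyte factors and 227 kb for other developmental factors. More than 500 kb separated 32.4% of member pairs (29.8 to 35.2) and 7.77% of the pairs of other baits. Fewer than 50 kb separated 3.48% (2.56 to 4.70) and 13.6%. Above 1 Mb the shares were alike, 1.48% and 1.43%, and 8 of those 17 member pairs belonged to Sox6 and 6 to Dlx5. Wilson intervals here cover counting error alone, and contacts of the same bait are not independent. Single baits weigh on the pooled value: without Sox6 the median was 316 kb, and the median over members of each member's own median was 266 kb (183 to 326), beside 153 kb for other baits.

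**Figure D2:**
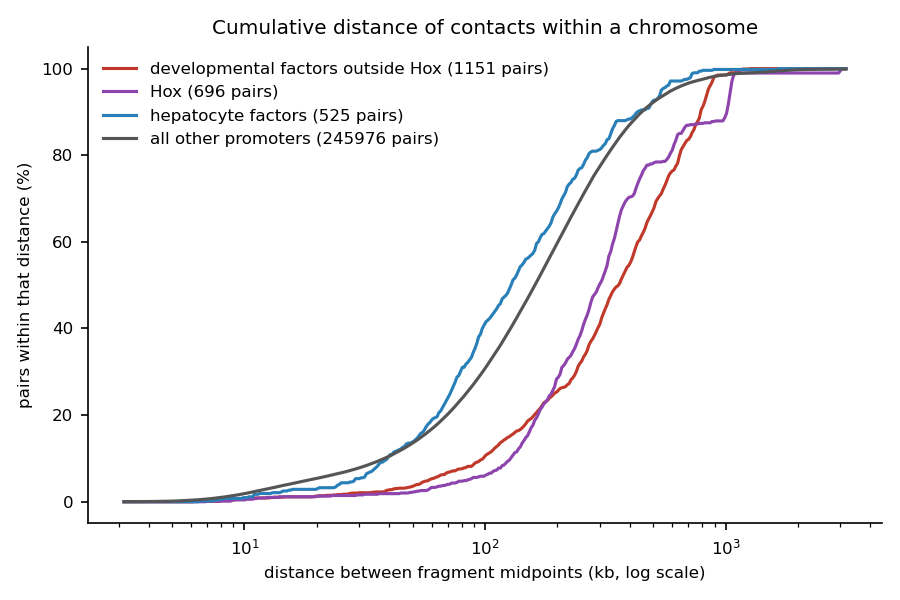
Cumulative share of pairs (y axis, %) within a given distance (x axis, kb, log scale) for members, Hox genes, hepatocyte factors and all other promoters. The member curve lies to the right of that of all other promoters up to about 1 Mb, with medians of 359.7 and 161 kb.

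Member genes also stood in gene-poorer surroundings, with a median of 9 protein-coding starts within 500 kb, beside 15 for other baits, and distance was therefore compared within classes of gene density. With 0 to 5 starts nearby, the median of bait medians was 393 kb (308 to 658) over 20 members and 272 kb (258 to 285) over 2037 other baits, and members had a median of 18 contacts (9 to 35), beside 5. With 6 to 10 starts it was 316 kb (196 to 465) over 20 members and 189 kb (184 to 195) over the others. With 11 to 20 starts it was 179.9 kb (103 to 266) and 148 kb, and with over 20 starts 123 kb (58.5 to 267) and 127 kb. Intervals of members and other baits were separate in the 2 gene-poor classes, with bounds of 196 and 195 kb in the second, and overlapped in the 2 gene-dense classes. These intervals treat members as independent, although neighbours such as Dlx5 and Dlx6, or Six3 and Six2, fall in the same class. In the densest class the 12 members had a median of 6.5 contacts (3 to 12), beside 11.

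**Figure D3:**
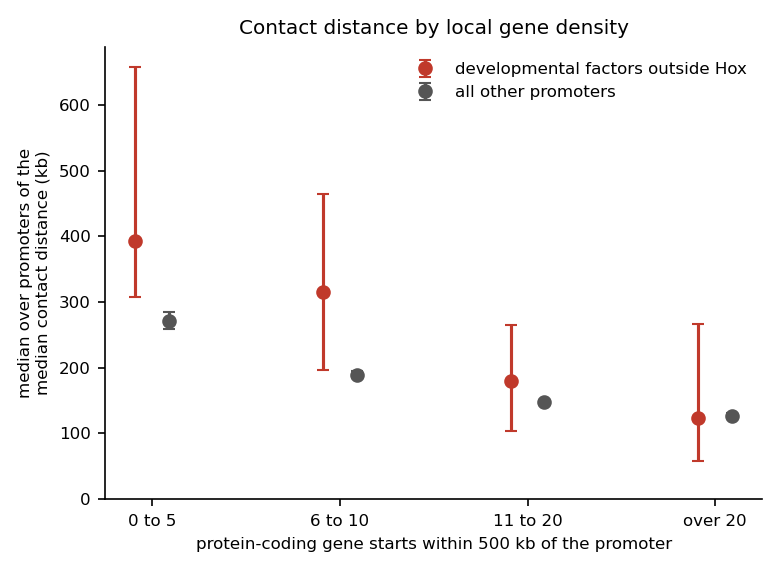
Median over promoters of the median contact distance (y axis, kb) in 4 classes of gene density (x axis, protein-coding starts within 500 kb); points are medians and bars their 95% intervals. Members lie above other promoters where at most 10 starts are nearby, at 393 against 272 kb in the poorest class, and the intervals overlap in denser classes.

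Many members sent all their contacts to 1 side of the gene. Of the 28 members with at least 10 contacts, 14 (50%, 32.6 to 67.4) had every contact on the same side, beside 21.9% (21.0 to 22.8) of 8786 other baits, 12 of 22 Hox baits and 3 of 15 baits of hepatocyte factors. Contacts of Dlx5 (68), Nkx3-2 (45), Pax9 (35), Pax6 (28), Nkx6-1 (27), Nkx2-6 (24), Pax1 (20) and Gata2 (15) all lay downstream. Among the rest, those of Tbx20 (58), Lhx9 (56), Six3 (40), Lhx2 (10) and Pax2 (10) all lay upstream. The share moved with gene density in other baits too, from 43.4% (39.8 to 47.1) with 0 to 5 starts nearby to 11.3% with over 20. Within the poorest class 8 of 13 members were one-sided (61.5%, 35.5 to 82.3), an interval that overlaps that of the other baits, and in the densest class 0 of 4 were. Contacts of a member also bunched, with a median of 58.6% (50 to 77.3) of them in its largest block of fragments at most 20 kb apart, close to the 57.1% of other baits.

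**Figure D4:**
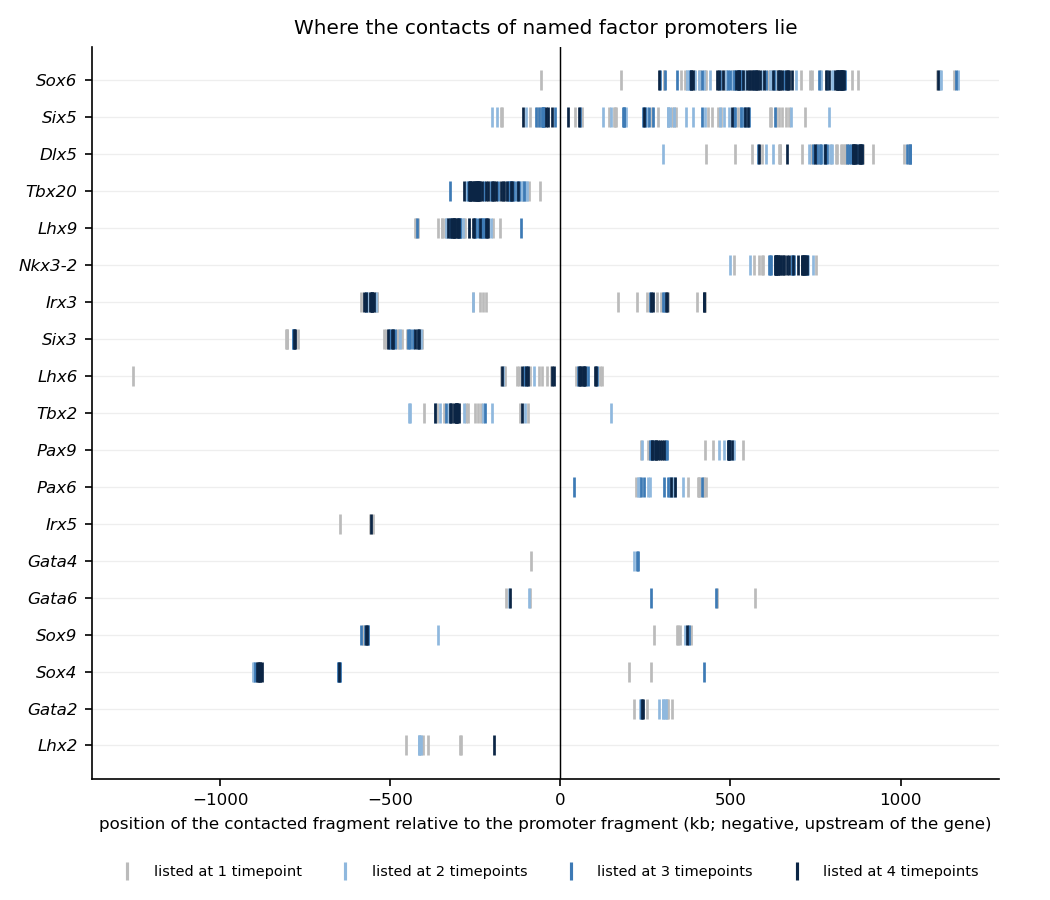
Position of each contacted fragment (x axis, kb from the promoter fragment, negative upstream of the gene) for 19 members; each tick is a contact, and darker ticks were listed at more timepoints. Tbx20 and Lhx9 contact only upstream, Nkx3-2 and Pax9 only downstream, and the contacts stand in bunches.

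Among the one-sided members, Tbx20 had 56 of its 58 contacts in a block 92.0 to 283 kb upstream, and its strongest fragment, 254 kb upstream, scored 24.37 (ZT0), 24.49 (ZT6), 18.59 (ZT12) and 17.13 (ZT18). Nkx3-2, which shapes the axial skeleton, had 43 of 45 in a block 557 to 751 kb downstream. Its strongest fragment, 635 kb away, scored 29.38, 31.09, 19.03 and 28.92. Contacts of both members lay almost wholly between genes, 57 of 58 for Tbx20 and 45 of 45 for Nkx3-2. Nkx6-1, a factor of beta cells and motor neurons, was similar, with 25 of 27 contacts in a block 609.5 to 750.5 kb downstream and a top fragment at 739 kb that scored 16.7, 11.93, 9.85 and 17.78. Sox2 had 15 of 16 contacts downstream, all 16 between genes. Sox6 held 74 of its contacts in a block 461 to 708 kb downstream, and its strongest fragment, 824 kb downstream, had the highest score of any member pair, 33.72 at ZT0, then 27.46, 29.62 and 26.28.

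Some other members had many of their contacts inside an unrelated neighbour. Lhx9 had 45 of 56 contacts (80.4%) in Dennd1b, 115 to 329 kb upstream, and 18 of the 45 were listed at all 4 timepoints. Tbx2, a limb and heart factor, had 36 of 37 in Bcas3, between 95.2 and 445 kb upstream. Pax9, a tooth and skeleton factor, had 32 of 35 in Slc25a21, a mitochondrial carrier gene, between 236 and 505 kb downstream. Such neighbours hold most contacts of these 3 members. Dlx5 had 24 contacts in Dync1i1, 853 to 1029 kb away, and 28 in Slc25a13, 666 to 836 kb away. Irx3 had 21 of 42 in Fto, 170.3 to 425 kb downstream, 18 of them intronic and 6 listed at every timepoint. Sox4 had 15 of 18 in Cdkal1, 647 to 902 kb upstream, where the strongest fragment, at 883 kb, scored 21.43, 22.61, 23.89 and 24.43. Fto and Cdkal1 are known from human association studies of body weight and diabetes. All contacts of Lhx2 lay in Dennd1a (10), all of Six2 in Srbd1 (8) and all of Lhx4 in Acbd6 (6). Six3 had 27 of 40 in 1700106N22Rik, and Pax6 had 9 of 28 in Dnajc24 and 6 in Elp4.

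The promoters of these neighbours had contact lists of their own. The Fto promoter had 2 contacts, which leaves little to share, and shared none with the 21 fragments that Irx3 contacted in the gene. The Dennd1a promoter also had 2 and shared 1 with the 10 of Lhx2. That of Cdkal1 had 5 and shared none with the 15 of Sox4, although it was itself contacted by Sox4. The Slc25a21 promoter had 15 and shared 1 with the 32 of Pax9, and that of Slc25a13 had 40 and shared 3 with the 28 of Dlx5. The Dennd1b promoter had 33 and shared 17 with the 45 of Lhx9, the largest overlap among these neighbours. No bait was listed at the start of Bcas3, Dync1i1 or Srbd1. Over all 1001 member contacts whose other end was no bait, 27.9% (25.2 to 30.7) lay in an intron of another gene, 13.9% (11.9 to 16.2) touched an exon of another gene, 7.39% lay in the member's own gene and 50.8% (47.8 to 53.9) between genes. Over all baits these shares were 22.2%, 29.0%, 9.59% and 39.2%. Pooled over contacts, the member shares were thus higher in introns of other genes and between genes, and lower on exons of other genes. Single baits weigh on these shares. Lhx9 had 28 intronic contacts in Dennd1b, Tbx2 had 28 in Bcas3 and Pax9 had 29 in Slc25a21. Sox6 had 66 contacts in its own gene and Sox5 had 9. Contacts of a bait are not independent, and shares per bait were not computed.

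Few gene starts lay between a member and its contact. The median was 1 protein-coding start for member pairs and 2 for all pairs within a chromosome. Among pairs 100 to 500 kb apart, 42.8% (39.0 to 46.6) of 657 member pairs passed over no start, beside 17.9% of all. At 500 kb to 1 Mb it was 21.6% (17.7 to 26.2) of 356, beside 10.5%. The part of the lower gene density of these regions in that difference was not tested.

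Other promoters made up a small part of the contacts. The other end was a bait in 150 of 1151 member pairs (13.0%, 11.2 to 15.1), beside 15.5% of the pairs of other baits. The share depended on distance: under 100 kb it was 25.6% (18.7 to 34.1) for members and 15.6% for all pairs, and from 500 kb to 1 Mb it was 6.46% (4.34 to 9.51) and 20.9%. Six5 alone made 31 of these contacts, and without it the share was 11.2%. Sox15, Sox12 and Sox30, with 59, 33 and 13 coding starts within 500 kb, contacted baits in 10 of 12, 5 of 5 and 5 of 5 cases. The strongest contact with a promoter was that of Sox13, known from T cell development, with Snrpe, a spliceosome subunit, 184 kb upstream, which scored 30.1 (ZT0), 19.91 (ZT6), 25.7 (ZT12) and 27.48 (ZT18). Six5 with the bait of Fbxo46 and Gm4969, 23.2 kb away, scored 22.66, 22.39, 19.76 and 27.69. Gata5, a heart and gut factor, had a contact with Cables2, 64.5 kb away, that scored 15.32, 13.65, 16.52 and 17.75. How often such partners are shared was not counted over other baits. Of 156 partner genes 10 were met by several members, such as Metap1d by Dlx1 and Dlx2. Iqcd and Tpcn1 were met by Tbx3 and Lhx5, which lie 762 kb apart with Tbx5 between them. The 10 are gene names, and names that start on the same bait, as Iqcd and Tpcn1 do, stand for 1 contacted fragment. The names U1, U6 and SNORA17, which stand for many loci, account for 3 of the 10.

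Contacts between members were few, as were contacts of any promoter with a developmental factor. Of the 150 member pairs that ended on a bait, 2 (1.33%, 0.366 to 4.73) had a developmental factor, Hox included, at the other end. Over all 38020 pairs of 2 baits within a chromosome, 1.05% had such a factor at either end. That share counts both ends and includes the member pairs themselves, so it is not a like measure. The share for a single end was not computed. Irx3 and Irx5, neighbours in a cluster that patterns many tissues, were joined across 556 kb with scores of 8.42 (ZT0), 10.45 (ZT6), 11.12 (ZT12) and 13.71 (ZT18). It was listed at all 4 timepoints, but the strongest contact of Irx3 was the adjoining fragment with the start of 4933436C20Rik, 555 kb away, with 14.9, 16.78, 18.81 and 15.76. By the same count Hox baits had 9 pairs among themselves and other developmental factors 3. Of 17 pairs of member genes within 1 Mb of each other, 6 shared contacted fragments. The share among other baits at like spacing was not counted, and several of these members had few contacts to share. Dlx5 and Dlx6, 19.6 kb apart, shared 9, which is 13.2% and 100% of their contacts. Dlx3 and Dlx4, 28.7 kb apart, shared 8, Dlx1 and Dlx2, 17.5 kb apart, shared 3, and Tbx3 and Lhx5 shared 1. Six3 and Six2, 72.8 kb apart, shared none of their 40 and 8 contacts, and Nkx2-1 and Pax9, 157 kb apart, shared none of 9 and 35.

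Members known from adult liver cells spanned the whole range. Tbx3, which keeps hepatocyte progenitors proliferating, had 28 contacts, 21, 26, 21 and 20 over the day, and 26 lay upstream. Its strongest fragment, 791 kb upstream between genes, scored 30.75, 32.93, 30.89 and 31.05, the steadiest of the 3 highest-scoring fragments. Sox9, the bile duct factor, had 18 contacts, 9 on each side, with the strongest 574 kb upstream at 10.23, 11.88 and 5.96 at ZT0, ZT6 and ZT12 and no listing at ZT18. Gata4, which specifies the liver sinusoidal endothelium, had 4 contacts, and its strongest, a fragment 216 kb downstream in the defensin gene Defb42, scored 8.45 at ZT6 and 5.21 at ZT18 and was absent at ZT0 and ZT12. Gata6 had 9 contacts, all between genes, with 1 at every timepoint, 147 kb upstream, that scored 5.60, 6.29, 5.45 and 5.56. Lhx2, a stellate cell factor, had 10, and Gata2, a factor of blood and endothelium, had 15, of which 6 lay in Eefsec. Sox17 had 7 contacts and Sox7 had 1, both endothelial genes. Sox5 had 9, all inside its own gene. Sox12 had 5 and Sox13 had 5. Sox6, Six5 and Sox4, described above with 141, 89 and 18 contacts, belong to this group too. The 14 baits of this group had a median of 9.5 contacts (5 to 28), and the other 55 members 7 (5 to 10). Their 359 pairs, 141 of them of Sox6, had a median distance of 464 kb, beside 313 kb for the other members. As medians of bait medians the values were 277 kb (159 to 575) and 237 kb (165 to 334).

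Across the day the members had similar numbers of pairs in each list. In the order of the day their pairs numbered 673, 685, 679 and 657, or 4.60, 4.43, 4.48 and 4.34 per 1000 pairs of the list, with Wilson intervals that all overlapped (4.27 to 4.96 at ZT0 and 4.02 to 4.69 at ZT18). Of the 28 members with at least 10 contacts, 6 (21.4%) had at least 2-fold more contacts at their highest than at their lowest timepoint, with 1 added to each number, where 18.4% of all 8819 such baits did. The 6 were Gata2, Lhx2, Pax2, Six4, Sox15 and Tbx1, and the share was near that background. Pax2, of kidney and eye, had 2, 6, 7 and 8 contacts in the order of the lists, and it was the only member of 28 with at least 2-fold more at ZT12 than ZT0, where 3.92% of all baits passed. No member had at least 2-fold more at ZT0 than ZT12, where 2.78% did. Gata2, with 7, 9, 9 and 4, was the only one higher at ZT6 than ZT18 (background 3.52%). Tbx1, a pharyngeal factor, with 5, 4, 3 and 9, was the only one higher at ZT18 than ZT6 (background 3.11%).

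The other members with wide swings remained under that 2-fold level or reached it at small numbers. Lhx2 had 4, 5, 2 and 5 contacts, Six4 had 4, 5, 4 and 9, and Sox15 had 4, 9, 4 and 7. Six5 was lowest at ZT0 and ZT6 (37 and 32) and highest at ZT12 and ZT18 (63 and 58), a ratio of 1.94. Dlx5 had a ratio of 1.68 and Nkx2-6, with 13, 22, 20 and 18, one of 1.64. Of the 21 members with at least 10 contacts and a single highest timepoint, the highest was ZT0 for 6, ZT6 for 7, ZT12 for 5 and ZT18 for 3. Over all baits of that kind the shares were 19.4%, 30.7%, 25.3% and 24.6%.

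A contact of a member was listed at all 4 timepoints in 309 of 1151 cases (26.8%, 24.4 to 29.5), beside 32.5% of the pairs of other baits, 36.5% of Hox and 44.4% of hepatocyte factor pairs. It was listed at a single timepoint in 428 cases (37.2%), beside 35.2%. Presence at every timepoint rose with the score: of member pairs whose highest score was from 5 to under 6, 0.601% were in all 4 lists, from 10 to under 15 it was 77.1% (69.9 to 83.1), and from 15 up 97.3%. For all pairs it was 0.784%, 85.0% and 98.5%. The comparison turned in 1 of 4 distance classes. Under 100 kb 25.6% (18.7 to 34.1) of member pairs were in all 4 lists, beside 43.0% of all pairs, and from 100 to 500 kb 24.0% (20.9 to 27.5), beside 29.3%. From 500 kb to 1 Mb it was 33.4% (28.7 to 38.5), beside 15.8% (15.2 to 16.4), and over 1 Mb 1 of 17 member pairs, beside 15.7%. Single baits weigh on the class from 500 kb to 1 Mb, as the median distances of Sox6, Dlx5 and Nkx3-2 were 575, 805 and 658 kb. At any distance 50 of 141, 14 of 68 and 22 of 45 of their contacts were in all 4 lists. The share of this class without these baits was not computed, and its interval treats contacts of a bait as independent. By family the share ran from 11.9% for the Six-type genes to 40.1% for Tbx, where Tbx20 had 32 of 58 and Tbx3 15 of 28. Counting another contacted fragment within 10 kb as the same contact raised the share to 69.0% for members and 71.1% for other baits.

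**Figure D5:**
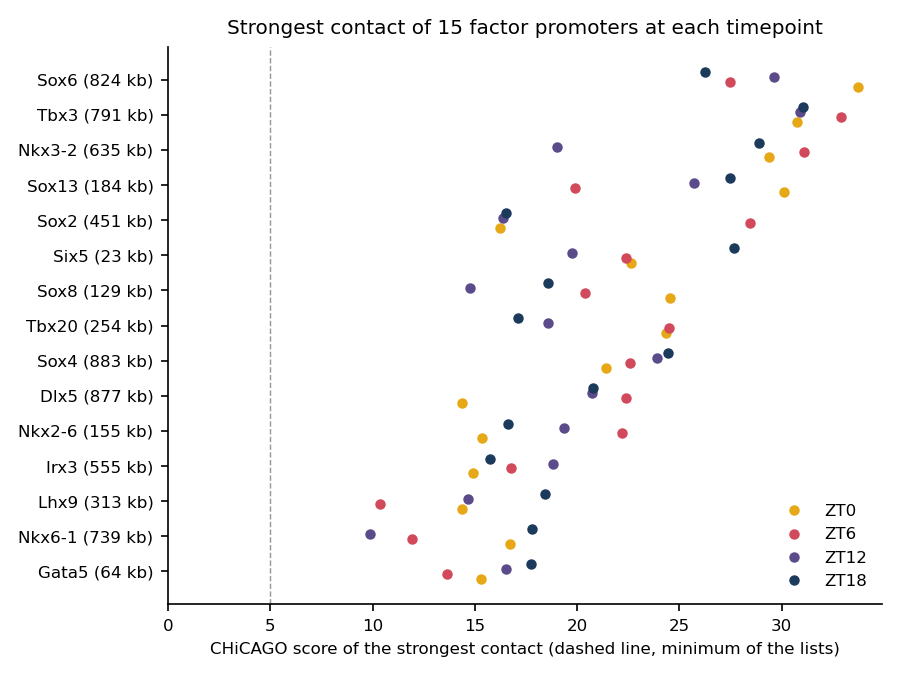
Score (x axis) of the strongest contact of 15 of the 16 members with the highest scores, with its distance in kb; points are the 4 timepoints and the dashed line the list minimum of 5. All 15 contacts were listed at every timepoint, and Tbx3 varied from 30.75 to 32.93 while Sox2 varied from 16.24 to 28.44.

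The members' fragments were rich in CG dinucleotides, and the fragments they contacted were not. The observed over expected CG frequency had a median of 0.493 (0.465 to 0.535) over member baits and 0.292 (0.289 to 0.295) over other baits. It was 0.449 for Hox, 0.475 for hepatocyte factor, 0.512 for Polycomb subunit and 0.54 for other developmental factor baits. Over 957 contacted fragments that were no baits it was 0.189 (0.183 to 0.196), beside 0.191 for all other baits' contacted fragments. Bait length was close, with medians of 6.04 and 5.86 kb. By family the bait value ran from 0.317 for Gata and 0.353 for Tbx to 0.568 for Nkx and 0.666 for Irx.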

How the data were processed

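Members, lists and the rule for named genes were chosen with earlier results of these data known. Per the labels and the study's methods, the authors processed reads with HiCUP on build mm9, merged the pools of each timepoint and called contacts with CHiCAGO. The deposited text lists give fragment pairs with a CHiCAGO score of at least 5. Pairs just under 5 are absent from a list, so absence is not a measured 0. The lists hold no read counts, and the study's sequencing totals were not used here. Each list was taken as the timepoint of its label. Pairs were joined over the 4 lists by fragment coordinates. A fragment marked as captured at any timepoint was a bait, and genes were assigned by their start in GENCODE vM1 (mm9). Distance was taken between fragment midpoints, within a chromosome. Sequences were read from the mm9 genome. Shares have 95% Wilson intervals and medians 95% binomial order-statistic intervals, which cover counting error only. With 1 merged list per timepoint no test was fitted, and members are described beside all other baits. Functions were tested on simulated data. Python 3.11.15, pandas 2.3.3, numpy 2.4.6, scipy 1.17.1 and matplotlib 3.10.9 were used.

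Named genes are the 12 members with most contacts, the leading member of each of the 9 families, the member to member pairs, the 10 members with at least 10 contacts and the largest ratio of highest to lowest number per timepoint (each plus 1), a list of members known from adult liver cells, members within 500 kb of another, and partners of several members. Further members are named as examples, chosen after their values were seen. Values of some named genes and a sequence are not reported here, while counts over all members include those genes.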

Additional observations from a re-analysis of the deposited data

How the results depend on the processing

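Of 49 alternative values 30 stayed inside the 95% interval of the reported value or within 1.5 times of a reported count, and 19 moved outside. Some of the 30 were fixed in advance. The ZT0 value could not change when lists were cut to the size of the smallest, which is that of ZT0, or when they were reordered. With scores of at least 7 and 10 the median contacts per member fell to 2 and 0 (3 and 1 for other baits), and 1 member to member pair, Irx3 with Irx5, was left in either case. Pairs per 1000 changed at ZT12 to 4.10 (score of at least 7) and 3.68 (10), and at ZT18 to 3.74 (10). The following settings were chosen after seeing the data. Without Sox6 they were 3.96, 3.89, 3.83 and 3.79 at ZT0, ZT6, ZT12 and ZT18, and without Six5 4.07 at ZT12 and 3.96 at ZT18. The median distance was 316 kb without Sox6, 320.4 kb without the 5 members with most contacts, and 266 kb as a median of bait medians, all above the 161 kb of other baits. Without Six5 11.2% of pairs ended on a bait. Of the settings listed at the start, counting ends within 10 kb as shared gave 69.0% at all 4 timepoints, and the central 2 kb of baits gave a CG ratio of 0.544. With the lists of ZT6, ZT12 and ZT18 read in the order of the study's totals, pairs per 1000 at each are those reported for another list. They stayed within the intervals, but each statement on ZT6, ZT12 or ZT18 would then name another timepoint. The causes were not tested.

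No paired analysis was possible because each list merges its pools, and for the same reason no pool was left out. The list minimum of 5 limits every statement on absence at a timepoint.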

Other observations

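Promoters of the Polycomb subunit genes, the proteins that mark many developmental promoters, had a median of 15 contacts (5 to 20) over 22 baits, beside 8 for the developmental factors. Their median distance was 201 kb (186 to 214), and 26.9% (22.6 to 31.7) of their 361 pairs ended on another bait, beside 13.0% for the factors. Of these pairs 25.8% were in all 4 lists.

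The 88 baits of other developmental factors (such as Otx, Fox and Pitx genes) had a median distance of 227 kb (214 to 241) and 15.9% of pairs over 500 kb. In 37 of these baits with at least 10 contacts, 14 had every contact on the same side of the gene (37.8%, 24.1 to 53.9).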
